A study of Mus musculus with 15 samples.

Results

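Mouse peripheral T cell lymphomas were compared with each other by their RNA level of Klrk1, the gene of the activating receptor NKG2D. The lymphomas were selected on the deposited array signal of Klrk1, as Klrk1-high above 11 on the log2 scale and as Klrk1-low otherwise, which placed 3 lymphomas (mPTCL 2, 6 and 8) against 6 (mPTCL 1, 3, 4, 5, 7 and 9) among the 15 samples of the study. Each lymphoma was hybridised to 1 oligonucleotide array. All 9 lymphomas had grown in C57BL/6 hosts that lack CD3, from transferred T cells of p53KO genotype, and were purified by sorting from liver. The labels give neither the gate of that sort nor an age or treatment per lymphoma, nor whether a lymphoma is 1 clone. Hosts without CD3 lack mature T cells of their own but keep NK cells, B cells and myeloid cells, which carry several of the genes described here. As background, 3 arrays of T cells activated in culture and 3 of resting T cells are given, both from 5-week-old C57Bl/6 p53 KO mice and sorted from liver or spleen. The growth protocol of these normal samples speaks of injections of PBS or killed pneumococci, without saying which donor received them.

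NKG2D is a lectin-like receptor of NK cells and of activated or memory CD8 T cells that binds stress-induced relatives of MHC class I. It signals through the adaptor DAP10, encoded by Hcst, which recruits phosphoinositide 3-kinase, and in mouse NK cells also through DAP12, encoded by Tyrobp, which recruits the kinases Syk and Zap70. Its gene lies in the NK gene complex beside those of CD94 (Klrd1) and the NKG2 chains, which pair with CD94 to read Qa-1, a nonclassical MHC class I molecule.

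The signal that parted the lymphomas is a description and supports nothing else here. Klrk1 signal was 8962, 5029 and 6806 in mPTCL 2, 6 and 8. In the Klrk1-low lymphomas it was 936 in mPTCL 4, 717 in mPTCL 1, 179 in mPTCL 5, 74.3 in mPTCL 3, 63.7 in mPTCL 9 and 50.7 in mPTCL 7. The nearest values on either side of the threshold were thus 5029 and 936. Activated T cells had 2056 to 2852 and resting T cells 375 to 581, so that mPTCL 1 and 4 were above resting T cells although they counted as low. NKG2D protein was not measured. No label separates the lymphomas by Klrk1, so each test below asks whether another gene went with this split among 9 lymphomas.

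The arrays shared 1 scale, with a 2% trimmed mean of 500 each, but other array measures went with the split. The median signal of all probe sets was 68.0 to 80.8 in Klrk1-high and 82.4 to 116 in Klrk1-low lymphomas. The ratio of 3′ to 5′ signal of the Gapdh control, which grows with RNA degradation, was 1.26 to 1.85 against 1.87 to 2.10, again without overlap, and that of actin was 1.47 to 1.73 against 1.64 to 2.65. The part of these measures in the differences below was not tested. Pearson correlations over the genes tested, as a description, were 0.877 to 0.914 between the Klrk1-high arrays, 0.727 to 0.867 between Klrk1-low arrays and 0.739 to 0.892 across the split. The Klrk1-low lymphomas were thus the more varied set. Replicates here are separate lymphomas by their labels, and the number of arrays limits the precision.

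Of 11049 genes tested, limma called 0 higher (0.0%) and 1 lower (0.00905%) in Klrk1-high lymphomas, where a call needs a difference of 2-fold or more and a Benjamini-Hochberg adjusted p under 0.05. At an unadjusted p under 0.05, 822 genes were higher (7.44%) and 973 lower (8.81%), 1795 in all (16.2%). The ranges of the 2 sets of lymphomas did not overlap for 403 genes on the higher side (3.65%) and 527 on the lower side (4.77%). These shares are the background for each group of genes below. The median difference over all genes was -0.07 on the log2 scale, and it became 0.06 after quantile normalisation or median centring. With all 15 arrays in 1 fit, where the 6 normal arrays enter the estimate of the spread, 101 genes were called higher and 243 lower. The normal T cell samples spread far less than the lymphomas, so these counts do not rest on the spread among lymphomas alone. The SE of Crebrf, for example, was 0.22 in that fit and 0.29 in the main fit.

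The called gene was Crebrf, which encodes a regulatory factor that restrains the stress-response transcription factor CREB3. On the log2 scale its signal was 6.16, 6.90 and 6.89 in mPTCL 2, 6 and 8, against a lowest of 8.90, a median of 9.39 and a highest of 9.66 in the Klrk1-low lymphomas. It ranged from 10.53 to 10.89 in activated and from 10.72 to 10.88 in resting T cells. All 3 Klrk1-high arrays were thus below every other array of the study, and the Klrk1-low lymphomas were between them and normal T cells. Crebrf fell by 2.68 ± 0.29 log2 units (SE, 3 and 6 lymphomas), a 6.41-fold decrease (limma adjusted p = 0.042). The call was close to the threshold. Leaving out mPTCL 2, 3, 4, 5, 6, 8 or 9 raised the adjusted p to between 0.0507 and 0.267. The mean of all probe sets of the gene, with or without signal, gave -1.53 (adjusted p = 0.148). The 2 probe sets with signal differed by -2.68 and -1.22.

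The next lower genes did not pass, with adjusted p from 0.0527 to 0.0911, and their values are given as such. Sh3pxd2a encodes the podosome scaffold Tks5. It was at 6.70, 7.14 and 6.30 in mPTCL 2, 6 and 8 and at 8.74, 9.56 and 9.98 (lowest, median, highest) in Klrk1-low lymphomas, a difference of -2.80 ± 0.36. For N4bp2l1 the values were 7.03, 6.57 and 6.22 against 8.86, 9.31 and 10.11 (-2.82 ± 0.36). Among the others were Fbxl20, a substrate receptor of a ubiquitin ligase (-2.10), Klhl24, a kelch-like ligase adaptor (-2.70), Rnf167, a lysosomal membrane ubiquitin ligase (-2.02), and Nbr1, a receptor of selective autophagy (-1.36). The chondroitin sulfotransferase gene Chst15 was at the floor of 5 in mPTCL 2 and 6 and at 7.18 in mPTCL 8, against 8.41 to 9.88 in Klrk1-low lymphomas (-3.47). N4bp2 (-1.59), Pcmtd1 (-1.86), Zfp949 (-1.99) and Zfp950 (-2.47) complete the 12. In all 12 genes the 3 Klrk1-high arrays were below all 6 normal arrays. In 7 of them the median of the Klrk1-low lymphomas was below all normal arrays too.

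On the higher side the smallest adjusted p was 0.0901, for Tdrd9, which encodes a helicase of the piRNA pathway that silences transposons in germ cells. Its log2 signal was 13.31, 11.01 and 12.55 in mPTCL 2, 6 and 8. Among Klrk1-low lymphomas it was 9.64 in mPTCL 1 and at the floor in the other 5, and it was at 5.68 or less in all normal T cells. The fold was at least 91.6. Aldh1a2, which makes retinoic acid from retinal, was likewise at 8.29, 8.14 and 9.54 in the Klrk1-high arrays, at 6.87 in mPTCL 1 and at the floor in the other 5 (at least 10.2-fold, adjusted p = 0.0911). Wdr95 had 12.37, 9.73 and 11.99 in mPTCL 2, 6 and 8, against 5.20, 6.26 and 8.56 as lowest, median and highest (4.70 ± 0.78). Both Tdrd9 and Aldh1a2 had their highest Klrk1-low value in mPTCL 1. Genes were tested only if they reached a set signal, the filter, in at least 3 lymphomas. Tdrd9 and Aldh1a2 could pass this filter only with Klrk1-high arrays, so their higher mean was fixed in advance.

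The other 9 genes of the higher set differed by 1.19 to 2.99. Polr1b, a subunit of RNA polymerase I, was at 11.13, 11.00 and 11.22 against 9.14, 9.68 and 9.99 (1.47 ± 0.26). Krtcap2, part of the oligosaccharyltransferase complex, differed by 1.55 ± 0.26. Serpinb9, an intracellular inhibitor of granzyme B, was at 11.32, 10.47 and 10.28 against 8.10, 8.91 and 9.82 (1.79 ± 0.39, adjusted p = 0.202). The ribosome assembly factor Ebna1bp2 (1.19), the mitochondrial ribosomal protein gene Mrps15 (1.59), the histone chaperone gene Nasp (1.29), the caspase inhibitor gene Aven (1.41), the Hippo pathway gene Wwc1 (2.99) and Tmem109 (1.21) had adjusted p of 0.175 to 0.202. In 11 of these 12 genes the Klrk1-high arrays were above all 6 normal arrays, the exception being Aven.

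**Figure D1:**
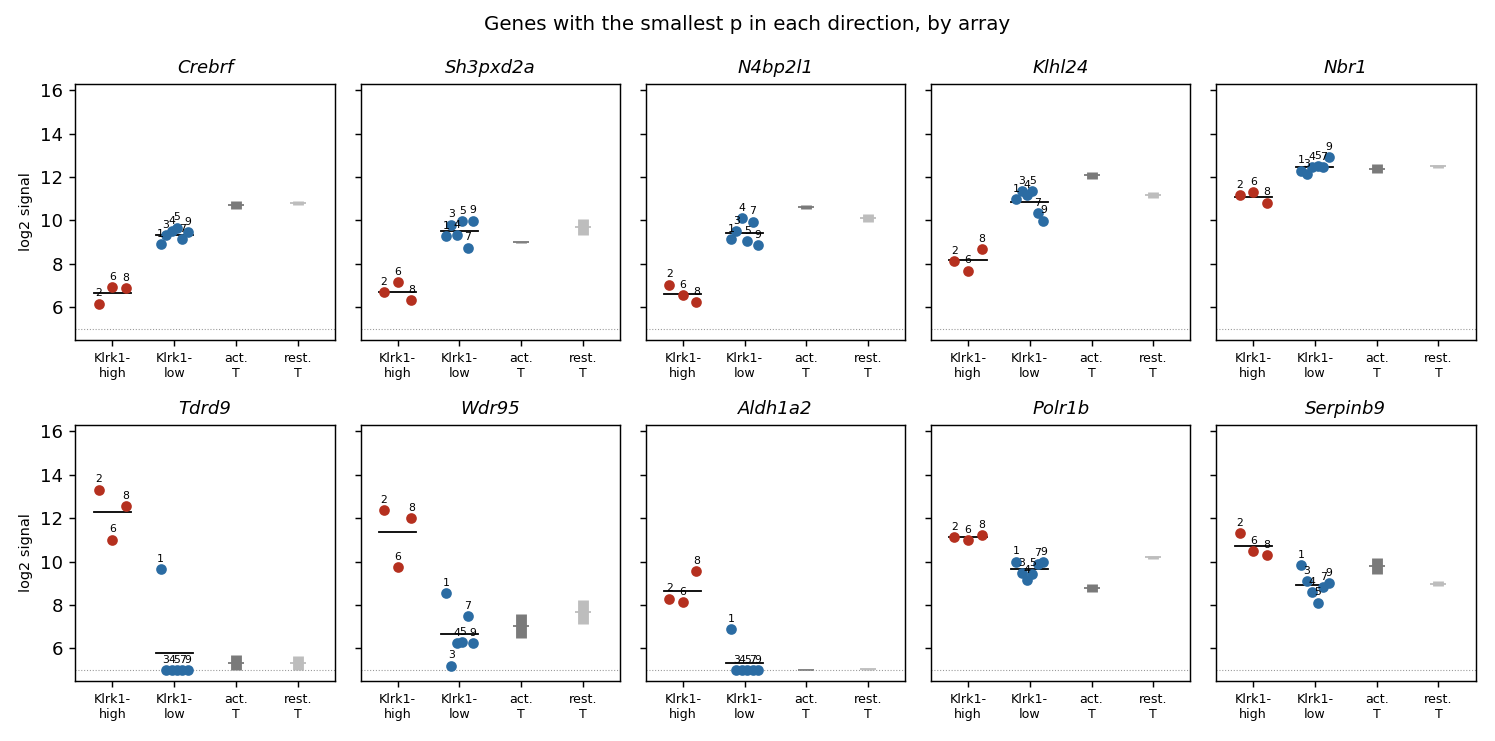
Log2 signal by array of 5 genes from the lower set (top row) and 5 from the higher set (bottom row), with red points for Klrk1-high lymphomas, blue points for Klrk1-low lymphomas (numbers are the mPTCL numbers), black lines for means, grey bars for the range of 3 activated and 3 resting T cell arrays, and a dotted line at the floor of 5. The 3 Klrk1-high points of Crebrf lie at 6.16 to 6.90, under all 6 Klrk1-low points and both grey bars.

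The promoters of the called gene and of the gene with the largest difference are shown because each holds the letters CACGTG, a core E-box, 2 times in the 250 bases before its start site. The sequences are those of RefSeq (GRCm38.p6), Crebrf at chr17:26715400-26715649 on the plus strand and Tdrd9 at chr12:111971309-111971558 on the plus strand, with the motif in capitals.
Crebrf: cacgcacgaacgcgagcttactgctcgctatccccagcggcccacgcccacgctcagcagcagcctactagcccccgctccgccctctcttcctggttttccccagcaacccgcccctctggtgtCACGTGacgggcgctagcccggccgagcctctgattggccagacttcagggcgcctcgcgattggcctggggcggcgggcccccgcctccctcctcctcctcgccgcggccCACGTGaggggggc
Tdrd9: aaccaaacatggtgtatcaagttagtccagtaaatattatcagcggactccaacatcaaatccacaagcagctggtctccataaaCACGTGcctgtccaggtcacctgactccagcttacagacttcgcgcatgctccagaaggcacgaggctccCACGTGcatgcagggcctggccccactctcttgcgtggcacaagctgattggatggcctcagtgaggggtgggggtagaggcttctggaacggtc
The motif reads the same on both strands and was chosen after these values were seen. It occurred in 6.86% of 27025 RefSeq promoters of this length, in 1 of the 9 lower and 1 of the 11 higher genes above that have such a promoter in the table. Among the lists described below it was in 2 of 8 promoters of CD94, NKG2 and NKR-P1 receptors, 4 of 18 of cytotoxic granule genes and 1 of 18 of Myc and ribosome genes. The matches describe the letters and nothing more.

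The list of CD94, NKG2 and NKR-P1 receptors had the highest median difference of the 37 gene lists. Of 10 tested genes for CD94, NKG2, NKR-P1 and related lectin receptors, 0 were called, 7 were higher at an unadjusted p under 0.05 (background 7.44%), and the median difference was 3.23, beside -0.07 over all genes. Klrc3, counted among the 7, could pass the filter only with Klrk1-high arrays, so its higher mean was fixed in advance. Klrk1 itself was left out. The mean log2 signal of the 11 listed genes on the array was 10.12 to 10.56 in Klrk1-high lymphomas and 6.97 to 9.65 in Klrk1-low ones. It was 7.67 to 8.02 in activated and 7.70 to 7.97 in resting T cells. In mPTCL 1 (9.65) and mPTCL 9 (9.30) the mean was nearer to the Klrk1-high lymphomas than to the other 4 Klrk1-low lymphomas (6.97 to 7.54).

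Klrg1, an inhibitory receptor of terminally differentiated effector cells, was the 1 of 10 tested members without overlap, on the higher side (background 3.65%). It was at 15.06, 14.03 and 14.43 in mPTCL 2, 6 and 8, at 7.68, 10.65 and 13.04 (lowest, median, highest) in Klrk1-low lymphomas and at 9.38 or less in normal T cells (4.12 ± 1.17, adjusted p = 0.219). Klrd1, the CD94 gene, was at 14.46, 13.55 and 13.90. Among Klrk1-low lymphomas Klrd1 was at 14.42 in mPTCL 9 and at 5.71 to 10.38 in the others, and normal T cells had 13.06 to 14.46. The Klrk1-high lymphomas were thus within or close to the normal range for Klrd1, and 5 Klrk1-low lymphomas were below it (4.33 ± 1.43, adjusted p = 0.237).

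Klrc1, which encodes the inhibitory chain NKG2A, was at 13.17, 14.01 and 11.75 in mPTCL 2, 6 and 8. The Klrk1-low values were 12.75 in mPTCL 1, 11.40 in mPTCL 9, 8.51 in mPTCL 5 and 5.00 to 5.23 in the other 3 (5.00 ± 1.78, adjusted p = 0.243). The range thus overlapped through mPTCL 1. Klrc2, the activating NKG2C chain, was at 8.92, 8.82 and 8.43 against 9.06 in mPTCL 1, 6.72 in mPTCL 9 and the floor in 4 (2.76 ± 0.88). Klrc3, the NKG2E chain, was at 7.75, 6.80 and 7.80 against 6.85 in mPTCL 1 and the floor in 5 (2.14 ± 0.53, adjusted p = 0.202), a direction fixed by the filter. In mPTCL 5 and 9 Klrc1 was thus detected while Klrc3 was at the floor. The NKG2 genes are near-identical in places, so probes may read more than 1 of them, which was not tested. Klre1 differed by 4.67 and Klrb1b, an NKR-P1 receptor, by 3.70, and in each the highest Klrk1-low value (13.11 in mPTCL 9 and 13.20 in mPTCL 1) exceeded at least 1 Klrk1-high value.

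Promoters of Klrc1 and Klrc3 are shown because these neighbours of Klrk1 were detected in all 3 Klrk1-high lymphomas and at or near the floor in several others, and because each holds TGTGGT, the core letters read by Runx factors, or its reverse complement ACCACA. Both lie on the minus strand of GRCm38.p6 in RefSeq, Klrc1 at chr6:129678974-129679223 and Klrc3 at chr6:129643289-129643538, printed in the direction of the gene with the matches in capitals.
Klrc1: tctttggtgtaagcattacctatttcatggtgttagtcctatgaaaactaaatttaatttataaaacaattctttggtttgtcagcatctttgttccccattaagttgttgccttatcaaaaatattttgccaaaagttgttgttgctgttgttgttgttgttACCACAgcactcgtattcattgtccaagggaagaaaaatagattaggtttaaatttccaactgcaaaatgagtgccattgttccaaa
Klrc3: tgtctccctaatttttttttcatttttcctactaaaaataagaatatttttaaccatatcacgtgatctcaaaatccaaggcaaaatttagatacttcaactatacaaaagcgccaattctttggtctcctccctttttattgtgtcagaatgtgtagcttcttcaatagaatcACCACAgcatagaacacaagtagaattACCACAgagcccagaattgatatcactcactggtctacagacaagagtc
These letters, searched on both strands, occurred in 15.9% of all RefSeq promoters of this length. They were in 4 of 8 promoters of the CD94, NKG2 and NKR-P1 receptor list and 9 of 18 of the cytotoxic list. In the other sets counted they were in 3 of 18 of the Myc and ribosome list, 1 of 11 higher and 1 of 9 lower genes. This motif too was chosen with the values known.

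Other NK cell receptors went both ways. Their 15 tested genes had a median difference of 0.02. Of these, 2 were higher (background 7.44%) and 1 lower (background 8.81%) at an unadjusted p under 0.05. Ncr1, which encodes NKp46, was at 11.57, 8.44 and 11.16 in mPTCL 2, 6 and 8. The Klrk1-low lymphomas had 9.39 in mPTCL 7, 9.27 in mPTCL 1, 6.54 in mPTCL 3 and the floor in 3 (3.69 ± 1.22, at least 12.9-fold, adjusted p = 0.236), and normal T cells had 6.16 or less. Slamf6, a self-binding SLAM family receptor, was at 6.18, 6.52 and 6.20 and thus below normal T cells (11.01 to 12.11). In Klrk1-low lymphomas Slamf6 was between 10.35 and 11.75 in mPTCL 1, 3, 4 and 5 and at 6.24 and 6.75 in mPTCL 7 and 9 (-3.28 ± 1.24, adjusted p = 0.254). Of 4 Ly49 receptor genes tested, 0 passed at an unadjusted p under 0.05 (background 16.2%), and the median difference was 0.23. Klra7 was at 8.22, 5.00 and 13.45 in the Klrk1-high lymphomas, so that they did not share it (median 5.30 and highest 10.25, in mPTCL 9, in the Klrk1-low ones), and Klra17 differed by 0.22.

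**Figure D2:**
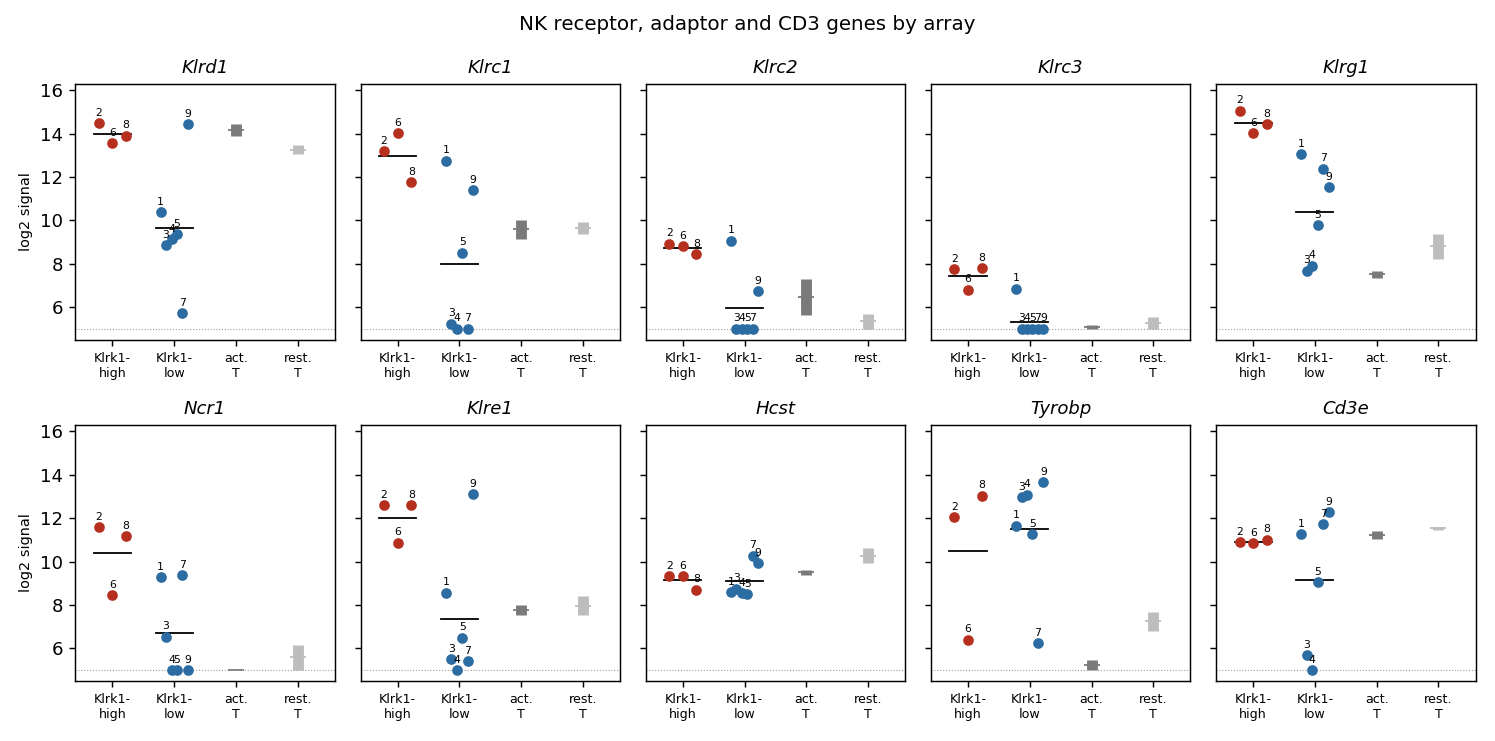
Log2 signal by array of receptor genes, of the adaptor genes Hcst and Tyrobp and of Cd3e, with red points for Klrk1-high and blue points for Klrk1-low lymphomas (numbers are the mPTCL numbers), black lines for means, grey bars for the range of 3 activated and 3 resting T cell arrays, and a dotted line at the floor of 5. Klrg1 is the receptor whose red points, 14.03 to 15.06, all lie above the blue ones, while mPTCL 1 or 9 reaches the red points for Klrd1, Klrc1 and Klrc2.

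The adaptor genes of NKG2D overlapped between the sets of lymphomas. Hcst was at 9.33, 9.34 and 8.71 in Klrk1-high lymphomas and at 8.50, 8.67 and 10.27 (lowest, median, highest) in Klrk1-low ones, a difference of 0.03 ± 0.46 (adjusted p = 0.983). It was 9.39 to 10.61 in normal T cells. Tyrobp split the Klrk1-high lymphomas, with 12.06 in mPTCL 2 and 13.04 in mPTCL 8 but 6.40 in mPTCL 6. The Klrk1-low values were 6.25 in mPTCL 7 and 11.25 to 13.65 in the other 5 (-0.98 ± 1.78, adjusted p = 0.814). Fcer1g, the adaptor of NKp46 and Fc receptors, was low in the same 2 lymphomas, at 7.77 in mPTCL 6 and 6.20 in mPTCL 7 (0.14 ± 1.35). Myeloid cells carry both adaptors, and the macrophage and Kupffer cell marker mean was lowest of the 9 lymphomas in mPTCL 7 (5.73) and next in mPTCL 6 (6.40). The neutrophil marker mean was 7.84 in mPTCL 6 and 6.02 in mPTCL 7. The lowest neutrophil mean, 5.61, was in mPTCL 3, where Tyrobp was at 12.96. The part of myeloid cells was not tested.

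Of the 23 tested genes of NKG2D signalling, 0 were called and 1, Syk, was lower at an unadjusted p under 0.05 (background 8.81%). The median difference was -0.08. Syk, the kinase recruited by ITAM adaptors, was at 6.79, 5.00 and 8.03 in mPTCL 2, 6 and 8. It was at 5.00 in mPTCL 7 and at 9.23 to 11.75 in the other Klrk1-low lymphomas (-2.92 ± 1.30, adjusted p = 0.303). Zap70, its relative in T cells, was even in the Klrk1-high lymphomas at 11.52, 10.86 and 11.08, while the Klrk1-low ones ran from 5.60 to 11.83 (1.74 ± 1.23; its probe sets disagree in sign). Lat2, a membrane adaptor used by B and NK cells, differed by -1.84. The phospholipase gene Plcg2 was at 12.62, 11.66 and 12.53 against a median of 12.67 (-0.08 ± 0.59), with 8.07 to 10.03 in normal T cells. Both sets were thus above normal T cells for Plcg2. Of NKG2D ligands, 1 gene was tested, Ulbp1, which differed by 0.45 ± 0.40.

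No granzyme gene named here passed the test, and their values overlapped between the sets. For 20 tested genes of cytotoxic granules, granzymes and their inhibitors included, the median difference was 1.07. At an unadjusted p under 0.05, 3 were higher (background 7.44%) and 1 lower (background 8.81%). Gzmb, granzyme B, was at 14.94, 15.17 and 11.51 in mPTCL 2, 6 and 8. In the Klrk1-low lymphomas it reached 14.33 in mPTCL 7 and 14.54 in mPTCL 9 and was at 6.89 to 10.81 in the other 4 (3.11 ± 1.75, adjusted p = 0.388). Gzma, granzyme A, was at 14.94 to 15.59 against 10.45, 14.99 and 15.45 (1.26 ± 0.97). Prf1, perforin, was at 9.28, 6.70 and 8.61 against 5.87, 6.95 and 10.01 (0.88 ± 0.88). Gzmd and Gzmg were at the floor in all 3 Klrk1-high lymphomas. The members with the smallest p were inhibitors of granzymes, Serpinb9 above and Serpinb9b (10.19, 9.29 and 7.19 against 5.00, 6.09 and 8.13).

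Among 12 effector cytokines and chemokines, 1 was higher at an unadjusted p under 0.05 (background 7.44%). Ifng, interferon gamma, was at 13.32, 14.37 and 11.34 in mPTCL 2, 6 and 8, against 13.35 in mPTCL 7, 11.44 in mPTCL 1 and 5.78 to 8.98 in the other 4 (4.08 ± 1.56, adjusted p = 0.255). Ccl5 differed by 2.43 ± 1.32. Il18rap, a chain of the IL-18 receptor that drives interferon gamma in NK and effector T cells, was at 12.45, 11.28 and 11.04 against 7.43, 8.86 and 11.49 (2.60 ± 0.87, adjusted p = 0.239). Tbx21, the T-bet gene, was at 12.65, 9.76 and 12.53 against a median of 8.96 (2.34 ± 1.18). Its relative Eomes was at 11.11, 6.96 and 11.92 against a median of 8.43 (1.63 ± 1.75). S1pr5, a receptor that NK cells use to leave lymphoid organs, was at 11.09 and 10.63 in mPTCL 2 and 8 and at the floor in mPTCL 6. In Klrk1-low lymphomas it was at 7.90 in mPTCL 1 and at the floor in the other 5. For Tbx21, Eomes, S1pr5 and Tyrobp mPTCL 6 had the lowest value of the Klrk1-high lymphomas.

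No gene of T cell identity passed the test. The 9 TCR, CD3 and coreceptor genes had a median difference of 0.32. Of these, 0 were higher (background 7.44%) and 1 lower (background 8.81%) at an unadjusted p under 0.05. Cd3e was even in the Klrk1-high lymphomas, at 10.91, 10.85 and 11.01, close to normal T cells (11.04 to 11.60). In the Klrk1-low lymphomas it was 5.68 in mPTCL 3, 5.00 in mPTCL 4, 9.03 in mPTCL 5 and 11.26 to 12.28 in the other 3 (1.76 ± 1.59). Cd4 was at 10.50 and 10.15 in mPTCL 2 and 6 and at the floor in mPTCL 8, where Cd8a was highest of the 3 (8.60, 7.91 and 11.07 in mPTCL 2, 6 and 8). Among Klrk1-low lymphomas Cd4 was at 9.08, 8.34 and 6.13 in mPTCL 1, 5 and 3 and at the floor in the other 3 (2.12 ± 1.37). The highest Cd8a of all 9 lymphomas was in Klrk1-low mPTCL 9, at 13.13 (-0.63 ± 1.11). Cd8b1, whose product pairs with that of Cd8a, was at 5.73 or less in all 3 Klrk1-high lymphomas. It was at 5.61 to 9.52 in the Klrk1-low lymphomas, against 12.57 or more in normal T cells (-1.89 ± 0.80, adjusted p = 0.293). The probe sets of Cd8a disagree in sign. Cd2 (2.71) was lowest in mPTCL 3, at 5.58, and Skap1 (2.59), a TCR signalling adaptor gene, was lowest in mPTCL 4 and 3, at 5.90 and 6.16.

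Regulators of T cell fate and of the naive state did not pass the test either. Bcl11b, which holds T cell identity, was at 11.59, 10.13 and 11.64 against a median of 12.06 (-0.18 ± 1.07). Cd5, which dampens TCR signals, was at 5.69, 6.06 and 7.04 against a median of 7.34 (-1.22), with 12.18 or more in normal T cells. Cd28, the costimulatory receptor, was at 9.91, 7.73 and 7.61 against a median of 8.10 (0.45). Both sets were thus below normal T cells for Cd5 and Cd28. Of 18 tested naive and quiescent T cell genes, 3 were lower at an unadjusted p under 0.05 (background 8.81%). Actn1, an actin crosslinker, was at 8.86 and 8.92 in mPTCL 2 and 6 and higher in mPTCL 8, though below all Klrk1-low lymphomas (10.14, 11.72 and 12.73) (-2.32 ± 0.64, adjusted p = 0.211), and Foxp1, a factor of T cell quiescence, differed by -0.99. Among 20 innate-like and NK regulators, Zbtb7b, the factor of CD4 lineage choice, was lower without overlap (-1.70 ± 0.50) and Bhlhe40 differed by 1.20. Zbtb16 (-0.87), Nfil3 (0.46), Myb (-2.07) and Tcf12 (-0.92) overlapped. The TCR signalling list had a median of -0.09 over 20 genes, with 1 lower at an unadjusted p under 0.05 (background 8.81%), Dgka (-1.15).

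Of the gamma-delta T cell genes, Trgv1 had values that did not overlap. All 6 tested had negative differences, with a median of -2.65, and 1, Trgv1, passed an unadjusted p under 0.05 (background 8.81%). The gamma chain segment Trgv1 was at 5.00, 6.04 and 6.37 in mPTCL 2, 6 and 8, below normal T cells (7.92 to 9.74). It was at 14.71, 14.46, 13.20 and 11.19 in mPTCL 3, 4, 9 and 7 and at 9.47 and 7.17 in mPTCL 1 and 5 (-5.90 ± 1.52, at least 59.6-fold lower, adjusted p = 0.202). Cd163l1, a scavenger receptor gene of gamma-delta T cells, was at 5.00, 7.81 and 5.94 against 12.25 to 14.41 in mPTCL 1, 3 and 4 and the floor in mPTCL 5, 7 and 9 (-2.82 ± 2.31). Blk, a kinase of B cells and some gamma-delta T cells, was at 7.19, 6.75 and 7.09 against a median of 10.27, highest in mPTCL 5 (12.13), which also had the highest B cell marker mean.

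Of 24 tested genes of Myc and ribosome biogenesis, 16 were higher at an unadjusted p under 0.05 (background 7.44%) and 12 did not overlap (background 3.65%), with a median difference of 0.82. In all, 22 of the 24 had positive differences, and the lowest of the other 2 was that of Max (-0.49), the dimer partner of Myc. Their mean log2 signal was 11.95, 12.22 and 12.11 in mPTCL 2, 6 and 8, against 10.75 to 11.83 in Klrk1-low lymphomas, 10.41 to 10.45 in activated and 11.19 to 11.22 in resting T cells. All 3 Klrk1-high lymphomas were thus above the other 12 arrays on this mean. Myc was at 13.53, 13.73 and 13.01 against 13.18 in mPTCL 7 and 10.71 to 12.07 in the others (1.64 ± 0.49). Nolc1, a nucleolar chaperone gene, was at 12.71, 12.92 and 13.12 against 11.61 to 12.58 (0.88 ± 0.24, adjusted p = 0.211). The nucleolar methyltransferase gene Nop2 (1.15) and the ribosome assembly genes Bop1 (1.26) and Nop58 (1.13) also did not overlap, and these 3 and Myc were chosen for mention after their values were seen. The 2 probe sets of Bop1 with signal differed by 1.26 and 0.18.

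Cell cycle genes had the same sign throughout their lists. Of 29 S phase genes, all were positive, with a median of 0.88. Of these, 12 had an unadjusted p under 0.05 (background 7.44%) and 6 did not overlap (background 3.65%). The S phase mean was 11.63, 11.75 and 12.075 in mPTCL 2, 6 and 8, and it overlapped through mPTCL 9 (11.81). Mcm2, a subunit of the replicative helicase, was at 12.31, 12.47 and 13.06 against 11.16 to 12.19, and Gins1, another part of that helicase, at 9.79, 10.19 and 10.46 against 8.01 to 9.51. Of 28 G2 and M phase genes, all were positive, with a median of 1.097. At an unadjusted p under 0.05 there were 15 (background 7.44%), and 4 did not overlap (background 3.65%). Birc5, survivin, was at 11.79, 11.84 and 11.72 against 8.99, 10.30 and 10.99 (1.61 ± 0.43, adjusted p = 0.205). Cdc20, an activator of the anaphase-promoting complex, was at 14.06, 13.64 and 13.61 against 10.97 to 13.10 (1.45). The mean of the G2 and M list was 11.88, 11.07 and 11.65 in mPTCL 2, 6 and 8. It was lowest in mPTCL 4 (9.13) and highest among Klrk1-low lymphomas in mPTCL 9 (11.60), beside 11.12 to 11.27 in activated and 7.47 to 7.83 in resting T cells. Mki67, a marker of cycling cells, was at 14.16, 13.82 and 14.02 against 11.84 to 13.83 (0.89 ± 0.38, adjusted p = 0.293).

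Genes of energy metabolism had smaller differences. Of 24 genes of oxidative phosphorylation, 11 were higher at an unadjusted p under 0.05 (background 7.44%). The ranges of 6 did not overlap (background 3.65%), and the median was 0.37. Ndufa9, of complex I, was at 13.00, 13.87 and 13.25 against 11.32 to 12.74 (1.20 ± 0.36), and Cyc1, of complex III, at 14.31, 14.53 and 14.54 against 12.94 to 14.17. All 14 glycolysis genes were positive, 6 at an unadjusted p under 0.05 (background 7.44%), with a median of 0.52. Those of smallest p were triose phosphate isomerase, Tpi1 (1.29 ± 0.37), and aldolase, Aldoa (0.75). The glycolysis mean was 11.46 to 11.69 in Klrk1-high and 10.43 to 11.44 in Klrk1-low lymphomas, and both sets were below activated T cells (12.75 to 12.96). Cholesterol synthesis genes had a median of 0.26 over 17 genes. At an unadjusted p under 0.05, 1 was lower (background 8.81%), Tm7sf2 (-1.05), beside Sqle (1.36). The Gapdh and actin ratios given above were lower in the Klrk1-high arrays, and their part in these small differences was not tested.

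Of 21 immediate early genes, 4 were higher at an unadjusted p under 0.05 (background 7.44%), with a median of 0.75. Nr4a3, an orphan nuclear receptor induced by antigen receptor signals, was at 10.41, 10.48 and 9.91 against 6.60, 8.36 and 9.64 (2.10 ± 0.68), and its relative Nr4a1 differed by 1.70. Type I interferon response genes had a median of -0.23 over 23 genes. At an unadjusted p under 0.05, 2 were lower (background 8.81%), Trim30a (-1.46) and Isg20 (-1.58).

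The Bcl2 family, which sets the threshold of cell death, held 2 named genes with low values. Bcl2, the inhibitor of mitochondrial cell death, was at 5.71, 10.80 and 8.34 in mPTCL 2, 6 and 8, against 11.12, 12.55 and 13.84 (lowest, median, highest) in Klrk1-low lymphomas and 11.67 to 12.74 in normal T cells. The Klrk1-high lymphomas were thus below all other arrays for Bcl2, by very different margins (-4.16 ± 0.97, 17.8-fold lower, adjusted p = 0.202). Bmf, a BH3-only promoter of cell death, was at 6.98, 6.28 and 6.83 against 6.96 in mPTCL 7 and 8.24 to 10.97 in the others (-2.82 ± 0.84). Members with opposite actions were thus low together. In all, 4 of 14 Bcl2 family genes were lower (background 8.81%) and 0 higher (background 7.44%) at an unadjusted p under 0.05. Their median was -0.20.

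Jak2, a kinase of cytokine receptors, was at 8.77, 8.67 and 8.08 against 9.52, 11.12 and 12.24, with 10.59 to 11.51 in normal T cells (-2.57 ± 0.56, adjusted p = 0.202). Stat3, which such kinases activate, was at 10.67, 10.15 and 10.55 against 10.78, 11.33 and 11.73, with 11.63 or more in normal T cells (-0.80 ± 0.25). Of 19 JAK, STAT and SOCS genes, 3 were lower (background 8.81%) and 2 higher (background 7.44%) at an unadjusted p under 0.05. Their median was -0.66. Among 18 cytokine receptor genes Tgfbr2, a receptor for TGF-beta, was lower without overlap, at 11.00, 10.22 and 10.61 against 11.29 to 12.92 (-1.16 ± 0.35). Il2rb (0.52), Il2ra (-1.35) and Il7r (-1.57), chains of the receptors for IL-2, IL-15 and IL-7, overlapped widely.

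Single genes of other lists had low or uneven values. Cdk6, a G1 kinase, was at 6.56 in mPTCL 2 but 11.51 and 10.36 in mPTCL 6 and 8, against 11.18 to 13.18 (-2.86), while Cdkn1a, an inhibitor of cyclin-dependent kinases, differed by 0.91. Itgae, the integrin CD103 of tissue-resident lymphocytes, was at 7.47, 6.65 and 6.77 against 7.52, 9.22 and 12.67 (-2.94), and Itga4 differed by -2.04. S1pr5 could pass the filter only with Klrk1-high arrays, so its higher mean was fixed in advance. Of 17 homing receptors, S1pr5 was the 1 at an unadjusted p under 0.05, with Ccr9 at 2.56 and Ccr4 at -2.23. Checkpoint and costimulatory receptors had 0 of 14 at that level in either direction, with Cd200 (-1.66) and Tnfrsf4, a costimulatory receptor of the TNF family, nearest.

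**Figure D3:**
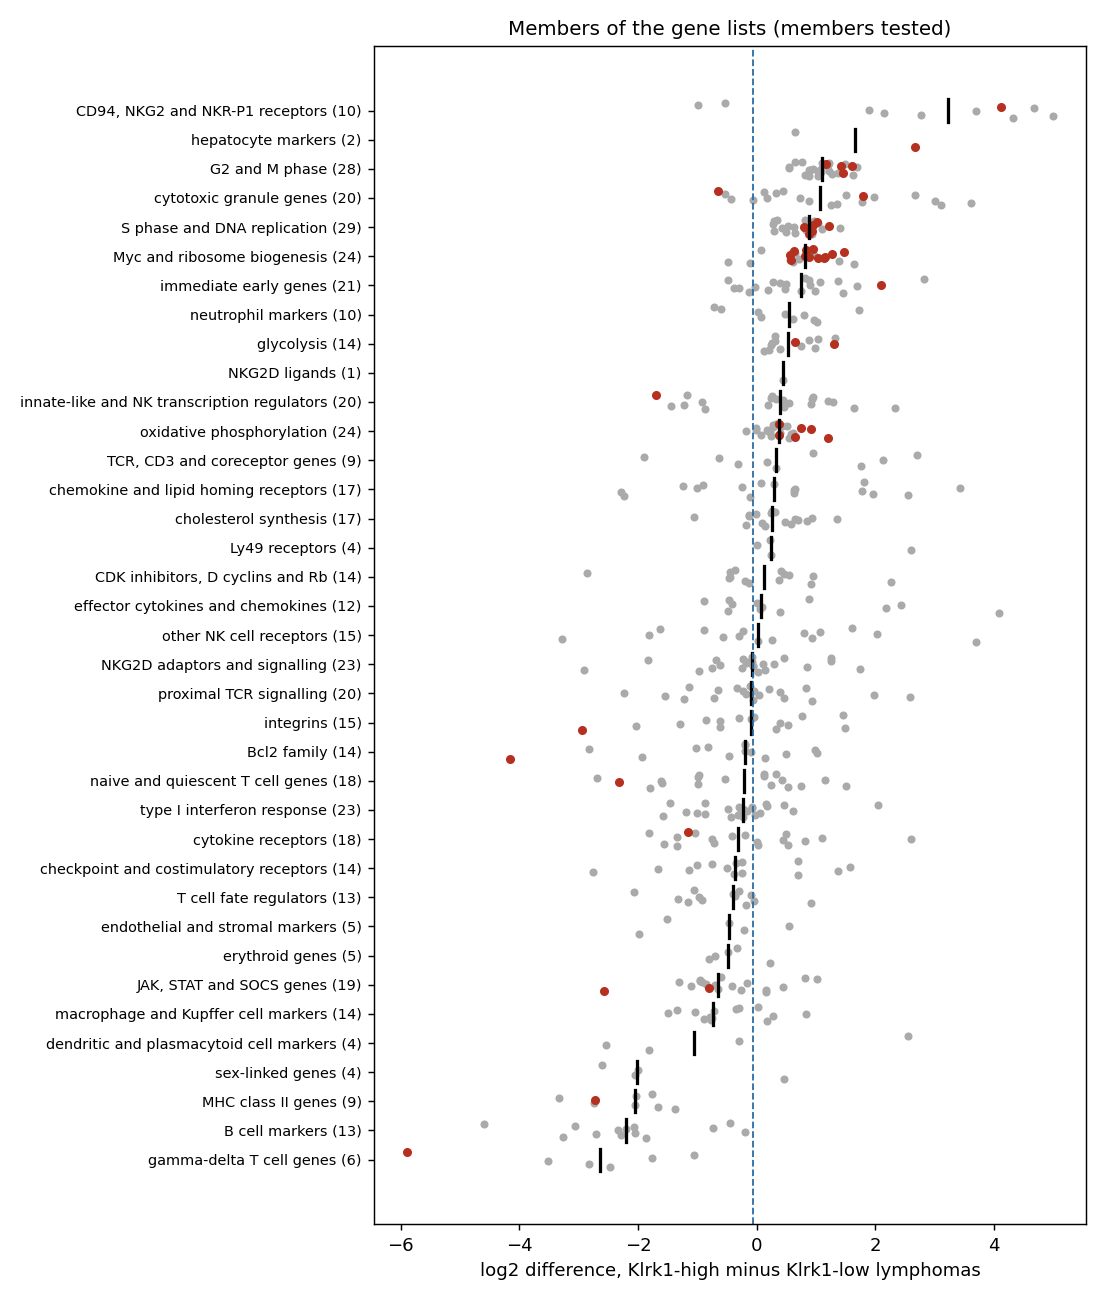
Difference in log2 signal, Klrk1-high minus Klrk1-low lymphomas, of each tested member of the 37 gene lists (number tested in brackets), sorted by list median, with black bars for medians, red points for genes whose 2 sets of lymphomas do not overlap, and a dashed line at the median of all genes (-0.07). The CD94, NKG2 and NKR-P1 list has the highest median, 3.23, and all points of the S phase, G2 and M phase and glycolysis lists lie above 0.

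Markers of other cells are given for each set, and in bulk samples fewer cells of a type and less RNA per cell cannot be told apart. All 13 tested B cell markers had negative differences (median -2.21, with 2 at an unadjusted p under 0.05, background 8.81%). Fcer2a was at the floor in all 3 Klrk1-high lymphomas. The mean of the 16 on the array was 6.15, 5.85 and 7.28 in mPTCL 2, 6 and 8. In the Klrk1-low lymphomas it was 11.08 in mPTCL 5, 10.37 in mPTCL 1 and 8.80 in mPTCL 4, but 7.25, 7.07 and 5.76 in mPTCL 3, 9 and 7, within or below the Klrk1-high range. Pou2af1, a B cell coactivator, was at 5.75, 5.00 and 8.50 against 11.38 or more in 5 Klrk1-low lymphomas and 5.00 in mPTCL 7, and Spib, a B cell and dendritic cell factor, differed by -3.06. All 9 MHC class II genes had negative differences (median -2.05), with a mean of 7.81 to 8.87 against 8.01 to 13.56. H2-Oa (-2.72) and H2-Ob (-3.33) had the smallest p. The part of these cells in the lower genes was not tested beyond the fit with the B cell marker mean as a covariate, where Crebrf was at -2.62 (adjusted p = 0.169).

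Myeloid markers did not go one way. Neutrophil markers had a mean of 7.84 to 10.65 in Klrk1-high and 5.61 to 11.90 in Klrk1-low lymphomas. At an unadjusted p under 0.05 there were 0 of 10 (background 16.2%), with Mmp9 at 1.72 and S100a8 at 1.02. Macrophage and Kupffer cell markers ran from 6.40 to 8.37 and from 5.73 to 10.51, with 0 of 14 at that level. Lyz2 was at 12.84, 8.32 and 12.87 against a median of 11.48 (0.17), and Marco, Timd4 and Cd163 were at the floor in all 3 Klrk1-high lymphomas. Albumin, Alb, the hepatocyte marker, did not overlap, with 11.22 in mPTCL 8, 7.38 in mPTCL 2 and 6.73 in mPTCL 6 against 5.05 to 6.30, while Apoa2 differed by 0.65. No Klrk1-low array reached the signal of the filter for Alb, so Alb was tested only because every Klrk1-high array did. Its direction and lack of overlap were thus fixed by the filter. Pecam1, of endothelium and some leukocytes, differed by -1.99, the erythroid genes Slc4a1 by -0.80 and Epor by -0.70, and Flt3, of dendritic cells, by -1.81. Of the Y-linked genes, Uty was at 7.55, 5.00 and 5.45 in mPTCL 2, 6 and 8 and at the floor in mPTCL 3, against 8.96 to 9.66 in the other 5 Klrk1-low lymphomas (-2.60), and Kdm5d was lowest in the same 4 lymphomas (-1.99). Of 4 sex-linked genes tested, 3 had negative differences and 1 a positive one (0.45). Eif2s3y was low in mPTCL 3, 6 and 8 but at 12.20 in mPTCL 2, above mPTCL 1 (11.93). The part of this in the differences was not tested.

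**Figure D4:**
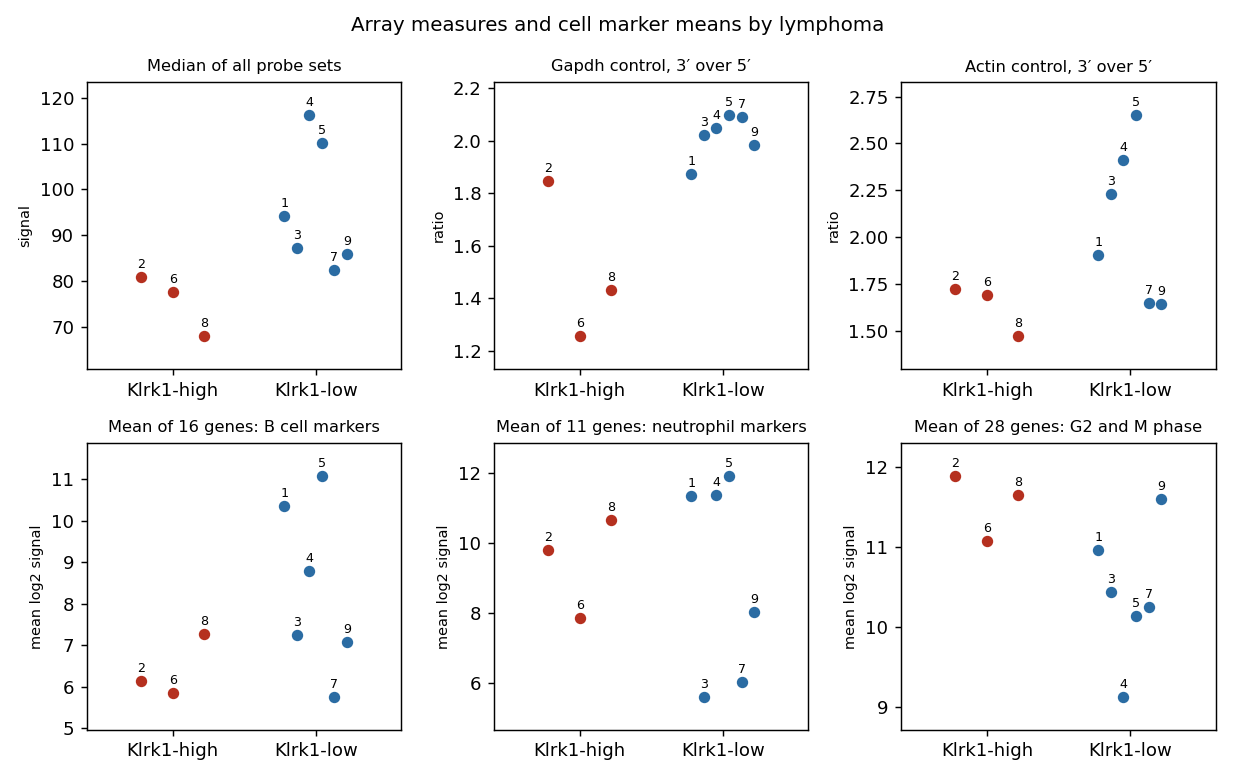
Array measures and marker means for each lymphoma (numbers are the mPTCL numbers), with the median signal of all probe sets and the 3′ to 5′ ratios of the Gapdh and actin controls in the top row, and the mean log2 signal of B cell markers, neutrophil markers and G2 and M phase genes in the bottom row. Klrk1-high lymphomas (red) do not overlap Klrk1-low ones (blue) for median signal (68.0 to 80.8 against 82.4 to 116) and for the Gapdh ratio.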

How the data were processed

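RNA of sorted cells was measured on Affymetrix arrays. The authors deposited linear intensity, computed with MAS5 by Affymetrix Expression Console (version 1.1 is named for the lymphomas), per the submitters' processing notes. Signals were raised to at least 32, the floor, which is 5 after the log2 transform. Of 45101 probe sets, the 34945 with 1 gene symbol that are no controls were used, gene symbols being updated through RefSeq, and the probe set of highest mean over all arrays stood for each of 18193 genes. Genes at 100 or more in at least 3 of the 9 lymphomas were tested. Tests used limma 3.58.1 in R 4.3.3 (lmFit, eBayes with a trend) on the 9 lymphoma arrays, with Benjamini-Hochberg adjustment over all genes tested and no covariate. The script was tested on simulated data. Folds are on the floored scale and are lower bounds where arrays were at the floor. Klrk1, which has 1 probe set, was left out of the results.

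Of 649 memberships in 37 gene lists, 577 were on the array and 528 tested. The split, the lists, the rule for naming genes and the alternatives were chosen with earlier results of these data known. Named genes were the 12 called genes with the largest differences and no overlap per direction, filled up with the smallest p among genes that differed by at least 2-fold without overlap. Predicted, clone-named and sex-linked genes and receptor segments were left out of these. Per list, up to 4 called members, or else the 2 of smallest p, were added, and 32 genes were always to be given, of which 30 were tested. The others are not reported here. Alternatives covered the floor, filter, scaling, probe sets, samples, variance model and covariates.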

Additional observations from a re-analysis of the deposited data

Results flagged for a closer look

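In the 6 Klrk1-low lymphomas, 11 of 124 genes and array measures had 1 lymphoma far from the other 5 by Dixon's criterion, which chance gives in about 1 in 20 groups. In 4 genes that lymphoma was mPTCL 1, with the other 5 at the floor: Tdrd9 at 9.64, Aldh1a2 at 6.87, Klrc3 at 6.85 and S1pr5 at 7.90 on the log2 scale. With 5 values tied at the floor any higher value is flagged, so these 4 cannot be set against the rate of 1 in 20. These genes could pass the filter only with Klrk1-high arrays at 100 or more, so their higher mean in Klrk1-high lymphomas was fixed in advance. In 3 genes the lowest was mPTCL 7, with Syk at 5.00 (others 9.23 to 11.75), Pou2af1 at 5.00 (others 11.38 to 14.02) and Tyrobp at 6.25 (others 11.25 to 13.65). The Ly49 gene Klra7 was at 10.25 in mPTCL 9, against 6.90 or less in the others, and Stab2, an endothelial scavenger receptor gene, at 7.25 in mPTCL 9, against 6.20 or less. Mrc1, a macrophage receptor gene, was at 11.73 in mPTCL 4, against 7.52 or less. Tgfbr2 was at 12.92 in mPTCL 5, against 11.29 to 11.69.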

How the results depend on the processing

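The count of genes called lower, 1, became 3 with the floor at 16, without probe sets that match several transcripts or without a trend, 4 with the filter at 200, 17 with array weights and 243 with all 15 arrays in 1 fit. It became 0 with the floor at 64, no filter, the filter over all 15 arrays, quantile normalisation, median centring, the mean of probe sets, Klrk1 signal as a continuous predictor, B cell or neutrophil markers as a covariate, and without mPTCL 1, 4 and 5 or mPTCL 3, 4 and 5. The count of genes called higher, 0, became 3 with array weights, 101 with all 15 arrays in 1 fit and 2 without mPTCL 1, 4 and 5 (Cxcl2 and Tdrd9). For Tdrd9 the direction was fixed by the filter, as said above. Leaving out 1 lymphoma gave 0 to 2 genes called higher and 0 to 4 called lower, and the call of Crebrf held without mPTCL 1 or 7. Its adjusted p ran from 7.73e-05 with all 15 arrays to 0.454 without mPTCL 3, 4 and 5, with differences of -1.53 to -2.81. The causes of these moves were not tested, beyond the fewer lymphomas in some fits.

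Of 3371 recomputed differences of 121 named genes, 54 changed sign, in 19 genes. With the B cell covariate these were Gzma (-0.23), Hcst (-0.60), Il2rb (-0.13), Plcg2 (0.79), Slc4a1 (0.67) and Tyrobp (0.22), and with continuous Klrk1 signal Hcst (-0.36), Il7r (0.0036), Mrc1 (0.12), Plcg2 (0.33) and Tyrobp (0.051). Klra17 (-0.078, floor at 64), Plcg2 (0.049, median centring), and Fcer1g (-0.079) and Lyz2 (-0.27, both neutrophil covariate) also turned. Without mPTCL 1, 4 and 5 Hcst was at -0.52, Il2rb at -0.14 and Plcg2 at 0.55. Without mPTCL 3, 4 and 5, where Cd3e is low, Cd3e was at -0.83, Eomes at -0.92, Hcst at -0.46, Il2ra at 0.43, Il2rb at -0.64, Il7r at 0.48, Plcg2 at 0.55 and Zap70 at -0.19. With 1 lymphoma left out, differences ran from -0.091 to 0.26 for Hcst, -0.64 to 1.26 for Fcer1g, -2.25 to 1.07 for Tyrobp, -0.73 to 1.68 for Lyz2, -0.29 to 1.125 for Cd28, -0.91 to 0.31 for Bcl11b, -0.49 to 0.23 for Plcg2, -1.57 to 0.031 for Cd8a, -0.089 to 0.83 for Nfil3 and -0.26 to 0.64 for Klra17. None of these genes had passed the test. No paired analysis was possible because each lymphoma has a replicate number of its own. Signals near the floor limit what can be said of Klrc3, Tdrd9 and Aldh1a2.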
